A study of Mus musculus with 12 samples.

Results

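The tail bud and segmentation clock genes described here are 10 genes of the rear end of the mouse embryo, T, Tbx6, Msgn1, Cdx1, Cdx2, Cdx4, Wnt3a, Fgf8, Hes7 and Lfng. They were taken by gene symbol from a table of 54532 genes, in which all 10 were found, and all 10 were among the 14804 genes with enough counts to be tested. RNA had been sequenced from 12 single C57BL6/J embryos at embryonic day 9.5 (E9.5), 6 KO and 6 WT. KO embryos were homozygous for a deleted Traf7 allele (Traf7-*/-*), in which E2a-Cre, active in the whole body, had removed the exons between the loxP sites. The floxed line came from 1 embryonic stem cell clone in which bases of a 2310061I04Rik intron had also been lost, and the asterisk in the KO titles marks alleles of that line. Loss of Traf7 and loss of 2310061I04Rik therefore cannot be told apart. WT embryos are labelled wild type. The labels give neither a somite number nor a litter for any embryo, so a p-value here speaks only of the spread among these 12 embryos. The series title and design text speak of brain, whereas the label of every sample says embryo, which was followed.

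The tail bud is the growth zone at the rear of the embryo, where progenitor cells shared by spinal cord and body muscle feed the lengthening trunk and tail. Wnt and Fgf signals keep these cells in an immature state, and T-box and Cdx transcription factors direct them into presomitic mesoderm. In that tissue a segmentation clock turns Notch target genes on and off in waves, and each wave sets off a new pair of somites, the blocks that give rise to vertebrae and body muscle. The comparison of KO with WT embryos asks how the transcriptome differs shortly before embryos without Traf7 die.

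Reads per gene were expressed as CPM, counts scaled to library size, with that size corrected by a TMM factor, so that a CPM of 1 is about 17 to 22 reads at this depth. The libraries held 16675204 to 21917571 counts. Where 0 reads were counted, the level may still have been as high as 3 counts, or 0.136 to 0.179 CPM depending on the embryo, a limit that covers counting error only. Traf7 measured 13.1 to 19.3 CPM in KO embryos and 114.4 to 144.2 CPM in WT embryos, so that no library went against its label. 2310061I04Rik measured 1.13 to 6.38 CPM in KO embryos and 7.19 to 15.8 CPM in WT embryos. The groups did not overlap, but the edgeR test used below did not call this gene (log2 fold change -2.35, adjusted p = 0.155).

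The 10 genes fell into 3 kinds. T, Tbx6, Msgn1, Cdx2, Cdx4 and Hes7 were low or absent in the same 5 embryos, KO embryos 2, 3 and 6 and WT embryos 5 and 6, and higher in the others, though for Hes7 only slightly so in WT embryo 3. Cdx1 was low in KO embryos 2 and 3 only. Wnt3a, Fgf8 and Lfng were transcribed at similar levels in all 12 embryos. The difference between embryos lay within both genotypes, and no gene of the 10 differed between KO and WT beyond that spread.

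The promoters of 4 of these genes are printed because they include 3 genes that were low or absent in some embryos (Msgn1, T and Hes7) and, for contrast, a clock gene that was not (Lfng). Sequences are from RefSeq on GRCm38.p6, a window of 250 bases before to 50 bases after the annotated start, read 5′ to 3′ on the strand of the gene. Capitals mark every match to 1 of 5 short motifs.
Msgn1 promoter, chr12:11208899-11209198, minus strand: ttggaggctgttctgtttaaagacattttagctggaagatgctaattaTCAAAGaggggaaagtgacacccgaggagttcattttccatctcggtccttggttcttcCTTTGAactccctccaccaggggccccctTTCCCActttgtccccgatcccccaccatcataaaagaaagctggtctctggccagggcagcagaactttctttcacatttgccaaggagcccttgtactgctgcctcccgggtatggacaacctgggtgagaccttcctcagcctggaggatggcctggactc
T promoter, chr17:8434173-8434472, plus strand: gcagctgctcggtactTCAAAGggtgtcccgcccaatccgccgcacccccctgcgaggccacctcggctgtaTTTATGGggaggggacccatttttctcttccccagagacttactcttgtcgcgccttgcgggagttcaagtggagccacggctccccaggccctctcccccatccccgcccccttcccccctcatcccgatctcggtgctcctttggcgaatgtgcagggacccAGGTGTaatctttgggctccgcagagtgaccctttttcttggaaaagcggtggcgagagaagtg
Hes7 promoter, chr11:69120203-69120502, plus strand: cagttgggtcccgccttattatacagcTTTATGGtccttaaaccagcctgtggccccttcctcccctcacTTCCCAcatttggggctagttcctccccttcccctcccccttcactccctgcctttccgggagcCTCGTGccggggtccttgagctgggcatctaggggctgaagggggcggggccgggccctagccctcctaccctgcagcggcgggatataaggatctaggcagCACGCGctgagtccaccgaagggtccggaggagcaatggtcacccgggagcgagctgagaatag
Lfng promoter, chr5:140607091-140607390, plus strand: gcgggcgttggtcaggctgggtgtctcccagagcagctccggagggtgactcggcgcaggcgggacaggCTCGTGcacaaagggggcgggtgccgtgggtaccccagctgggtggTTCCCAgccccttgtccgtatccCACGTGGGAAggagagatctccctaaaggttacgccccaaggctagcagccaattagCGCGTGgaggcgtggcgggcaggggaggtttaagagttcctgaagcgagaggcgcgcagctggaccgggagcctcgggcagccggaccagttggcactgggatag

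The motifs were searched on both strands. They were the TCF/LEF core CTTTGA, through which Wnt signals act, found in 16.2% of 27025 promoters of the same length. The T-box core AGGTGT was found in 13.9% of these promoters, and the CDX core TTTATNG in 11.3%. The box CACGNG, which Hes repressors and other basic helix-loop-helix factors bind, was found in 27.7%, and TGGGAA, the core bound by the Notch effector RBPJ, in 25.5%. Promoters of 8 of the 10 genes were read, the exceptions being Cdx1 and Fgf8. Of these 8, TCF/LEF cores were found in 2 (T and Msgn1), T-box cores in 2 (T and Cdx4), CDX cores in 3 (T, Tbx6 and Hes7), the CACGNG box in 4 (Tbx6, Wnt3a, Hes7 and Lfng) and RBPJ cores in 3 (Msgn1, Hes7 and Lfng). Msgn1 held 2 TCF/LEF cores, starting at -143 and -202 from the start site, and Lfng held 3 CACGNG boxes and 2 RBPJ cores, of which CACGTG at -112 and TGGGAA at -108 overlap. The Cdx2 promoter held none of these letters. These matches describe the sequence only.

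**Figure D1:**
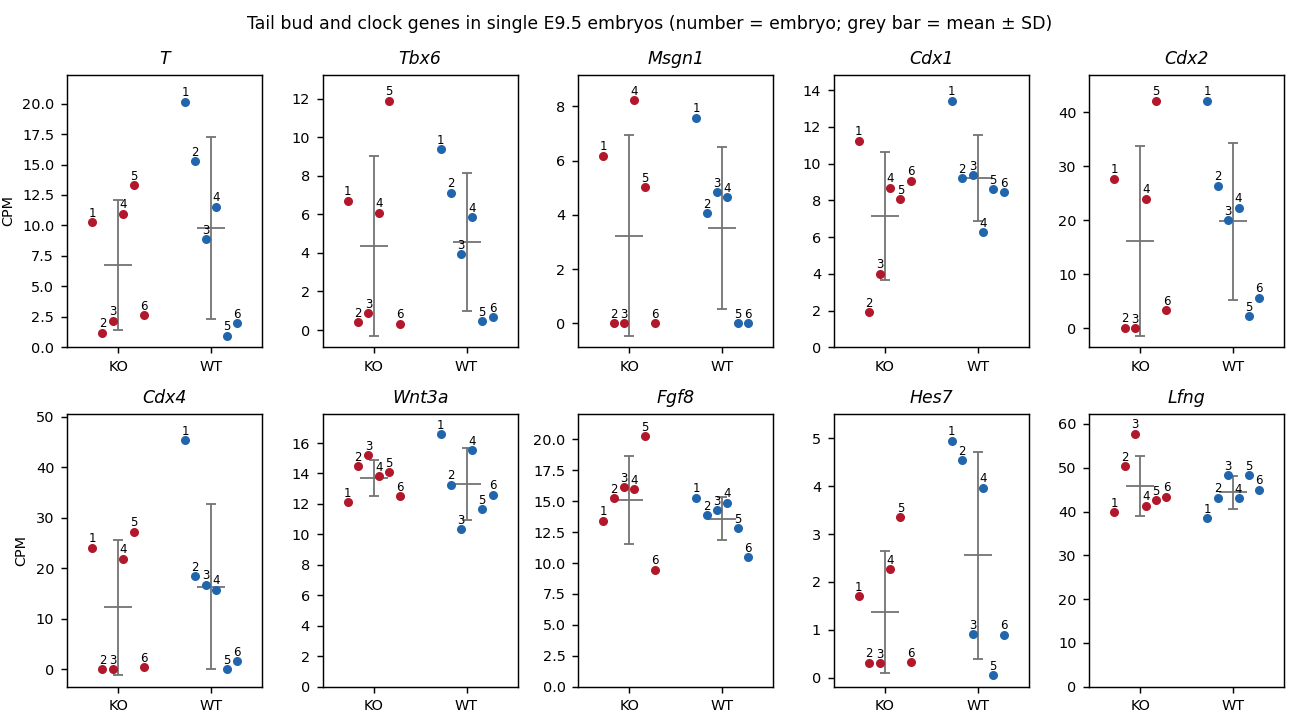
CPM of each of the 10 genes (vertical axis, linear) in 6 KO embryos (red, left) and 6 WT embryos (blue, right). Each point is 1 embryo with its number, and the grey bar is the mean with its SD. Msgn1 lies at 0 in KO embryos 2, 3 and 6 and WT embryos 5 and 6 and between 4.07 and 8.22 CPM in the others, while Lfng lies between 38.5 and 57.8 CPM in all 12.

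Msgn1 (chromosome 12, 11208360 to 11208972, GRCm38), encoding mesogenin 1, a basic helix-loop-helix factor that commits cells to presomitic mesoderm, gave the clearest division. KO embryos 1, 4 and 5 had 120, 138 and 111 Msgn1 counts, or 6.19, 8.22 and 5.02 CPM, and KO embryos 2, 3 and 6 had 0 counts. WT embryos 1 to 4 had 127, 69, 90 and 81 counts, or 7.58, 4.07, 4.84 and 4.65 CPM, and WT embryos 5 and 6 had 0 counts. Thus 5 embryos, 3 KO and 2 WT, had no read from this gene, and no embryo held an intermediate number. Msgn1 was the only gene of the table with 0 counts in these 5 libraries and at least 10 in each of the other 7. Depth did not set these libraries apart, since they held 16710896 to 21586416 counts, against 16675204 to 21917571 in the rest. The embryos are bulk samples, so fewer tail bud cells and less RNA per cell cannot be told apart in this or any value below.

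T (chromosome 17, 8434423 to 8442496), or brachyury, the T-box factor of nascent mesoderm and notochord, was low in the same embryos but not at 0. KO embryos 2, 3 and 6 had 1.18, 2.18 and 2.64 CPM, whereas KO embryos 1, 4 and 5 had 10.3, 10.96 and 13.3 CPM. WT embryos 5 and 6 had 0.931 and 1.97 CPM, and WT embryos 1 to 4 had 20.2, 15.3, 8.88 and 11.5 CPM. The 2 genotypes overlapped over nearly their whole range, and the sixth lowest embryo stood 3.36 times above the fifth.

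Tbx6 (chromosome 7, 126781483 to 126785560), a T-box factor that turns progenitors away from a neural fate and into presomitic mesoderm, followed the same division. It measured 0.409, 0.863 and 0.330 CPM in KO embryos 2, 3 and 6 but 6.70, 6.08 and 11.9 CPM in KO embryos 1, 4 and 5. In WT embryos 5 and 6 it measured 0.466 and 0.658 CPM, and in WT embryos 1 to 4 it measured 9.37, 7.13, 3.93 and 5.86 CPM. The gap between the fifth and sixth lowest embryo was 4.55 times. Tbx6 was the member whose profile across embryos was closest to that of T, with a mean absolute difference of 0.37 on the log2 CPM scale after each gene was centred on its own mean.

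**Figure D2:**
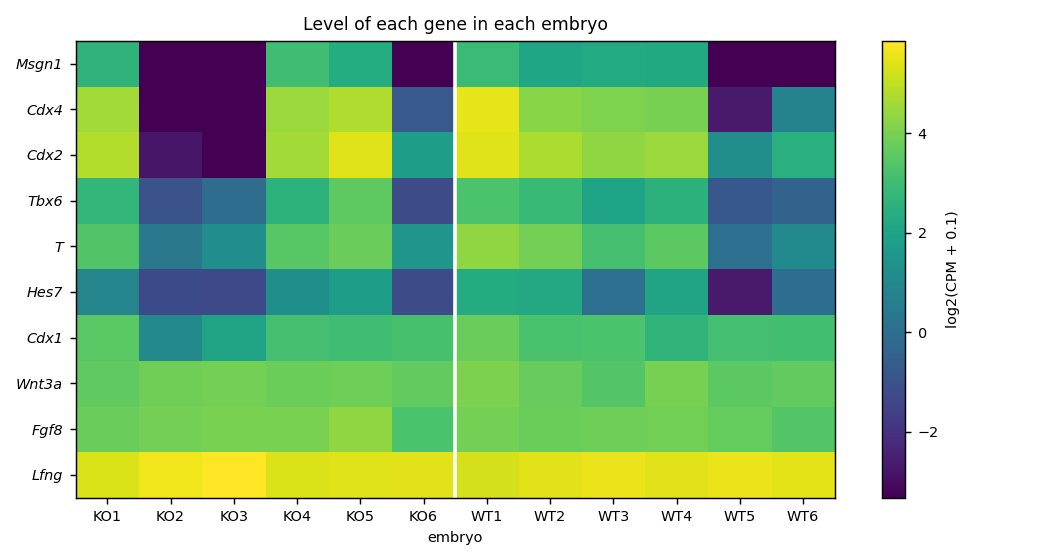
Level of each of the 10 genes (rows) in each embryo (columns, KO left of the white line and WT right), as log2 of CPM plus 0.1. Dark cells, low levels, stand in the columns of KO embryos 2, 3 and 6 and WT embryos 5 and 6 for the upper 6 genes, Cdx1 is darker in KO embryos 2 and 3, and the lower 3 genes are even across columns.

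The Cdx genes encode homeodomain factors related to fly caudal that extend the axis and turn on Hox genes of the trunk. Cdx2 (chromosome 5, 147300805 to 147307270) showed grades within the 5 low embryos. Its counts were 1 and 0 in KO embryos 2 and 3, while KO embryo 6 had 61 counts or 3.36 CPM, and KO embryos 1, 4 and 5 had 27.7, 24.0 and 42.2 CPM. WT embryos 5 and 6 had 2.21 and 5.62 CPM, and WT embryos 1 to 4 had 42.2, 26.4, 20.0 and 22.3 CPM. Thus KO embryos 2 and 3 were at or near 0, and the other 3 low embryos kept counts well above the floor.

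Cdx4 (chromosome X, 103321398 to 103330592) had a gap of 9.79 times between the fifth and the sixth lowest embryo. KO embryos 2 and 3 had 0 counts and KO embryo 6 had 0.495 CPM, against 24.1, 21.92 and 27.2 CPM in KO embryos 1, 4 and 5. WT embryo 5 had 1 count and WT embryo 6 had 27 counts or 1.61 CPM, while WT embryos 1 to 4 had 45.3, 18.4, 16.7 and 15.8 CPM. WT embryo 1 held the highest value of both T and Cdx4.

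Cdx1 (chromosome 18, 61018862 to 61036199), which acts further forward in the trunk than its relatives, did not follow them. It measured 1.91 and 4.01 CPM in KO embryos 2 and 3 and 8.05 to 11.2 CPM in the remaining KO embryos. In WT embryos it ran from 6.26 to 13.4 CPM with a median of 8.91. KO embryo 6 and WT embryos 5 and 6, at 9.08, 8.62 and 8.43 CPM, lay inside that range, so only KO embryos 2 and 3 were lower than all WT embryos.

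Wnt3a (chromosome 11, 59248033 to 59290752), the main Wnt ligand of the tail bud, which is also made in the dorsal neural tube, was even across embryos. It ran from 12.1 to 15.2 CPM with a median of 13.9 in KO and from 10.3 to 16.6 CPM with a median of 12.9 in WT embryos. KO embryos 2 and 3, which lacked Msgn1 and Cdx4, had the highest Wnt3a of the KO embryos, at 14.5 and 15.2 CPM. The highest embryo exceeded the lowest 1.61 times.

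Fgf8 (chromosome 19, 45736798 to 45742915), the Fgf ligand of the tail bud, which is also made at the midbrain-hindbrain boundary and in the face and limb buds, ran from 9.46 to 20.3 CPM with a median of 15.6 in KO embryos. In WT embryos it ran from 10.5 to 15.3 CPM with a median of 14.1. KO embryo 6 and WT embryos 6 and 5 were the lowest 3, at 9.46, 10.5 and 12.8 CPM, while KO embryos 2 and 3, at 15.2 and 16.1 CPM, were in the upper part of the range. The highest embryo exceeded the lowest 2.14 times.

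The clock genes gave opposite pictures. Hes7 (chromosome 11, 69120404 to 69124055), the Hes repressor whose delayed feedback on itself drives the oscillation, measured 0.318, 0.305 and 0.330 CPM in KO embryos 2, 3 and 6 but 1.70, 2.26 and 3.35 CPM in KO embryos 1, 4 and 5. WT embryos 5 and 6 had 0.0582 CPM (1 count) and 0.897 CPM (15 counts), and WT embryos 1, 2 and 4 had 4.95, 4.54 and 3.96 CPM. WT embryo 3 had 17 counts or 0.915 CPM, only 1.02 times the value of WT embryo 6, so for Hes7 the low embryos were not set apart by a gap. Hes7 overlaps 9130213A22Rik on the opposite strand, and the strand setting of the counting is not given in the sources used here, but that gene had 0 to 5 counts in any library.

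Lfng (chromosome 5, 140607320 to 140615545) encodes lunatic fringe, a sugar transferase that modifies the Notch receptor and oscillates in presomitic mesoderm, and it is also made in the neural tube. It ran from 39.9 to 57.8 CPM with a median of 43.0 in KO and from 38.5 to 48.3 CPM with a median of 44.0 in WT embryos. The highest value, 57.8 CPM, and the next, 50.3 CPM, were those of KO embryos 3 and 2. Thus Hes7 and Lfng did not move together from embryo to embryo.

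Summed over T, Tbx6, Msgn1, Cdx2, Cdx4 and Hes7, the level was 1.95, 3.35 and 7.15 CPM in KO embryos 2, 3 and 6 but 73.5 to 103 CPM in KO embryos 1, 4 and 5. The same sum was 3.73 and 10.8 CPM in WT embryos 5 and 6 and 55.3 to 129.6 CPM in WT embryos 1 to 4. Summed over Wnt3a, Fgf8 and Lfng, the level was 65.3 to 89.1 CPM in KO embryos and 68.0 to 73.5 CPM in WT embryos. Both groups of genes were formed after their values were seen, so the contrast between these sums follows from the grouping. Apart from Msgn1, which was used to name the 5 embryos, the 5 lowest libraries were those same 5 for 5 of the other 9 members. Among all tested genes this order held for 95 of 14804 (0.642%), members included. It was not particular to the members. In the lists described below it held for 6 of 12 tested Hox genes of groups 9 to 13, 5 of 13 Fgf genes and 2 of 10 caudal progenitor genes, but 1 of 14 Notch genes.

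**Figure D3:**
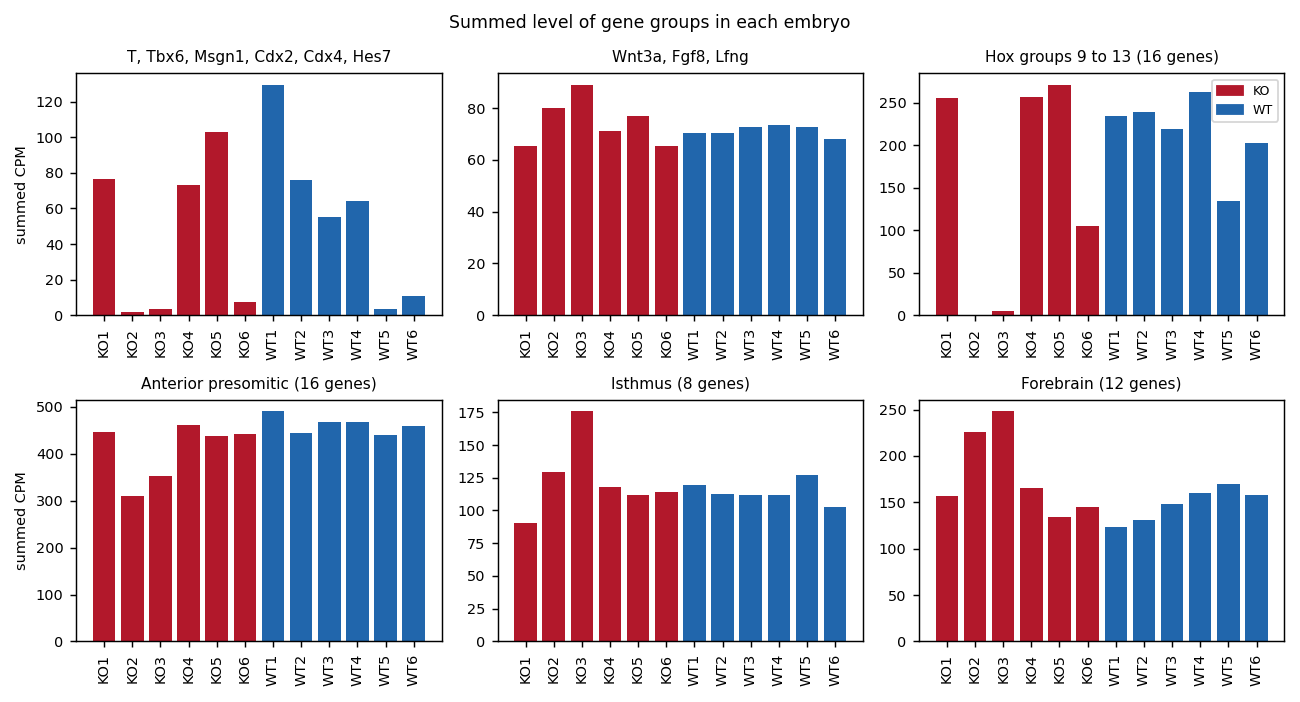
Summed CPM (vertical axes, from 0) in each KO embryo (red) and WT embryo (blue) for 6 gene groups. The sum of T, Tbx6, Msgn1, Cdx2, Cdx4 and Hes7 is 1.95 to 10.8 CPM in KO embryos 2, 3 and 6 and WT embryos 5 and 6, the Hox sum of groups 9 to 13 is lowest in KO embryos 2 and 3, and Wnt3a, Fgf8 and Lfng together stay between 65.3 and 89.1 CPM. The 2 groups of members were formed after their values were seen.

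Levels of different genes can be compared per gene length, in the FPKM values of the authors, which are scaled to gene length and library size. In KO embryos Lfng was highest with a mean of 18.2 ± 2.69 FPKM (SD, n = 6), ahead of Fgf8 at 11.1 ± 2.56, Cdx2 at 7.09 ± 7.69, Cdx4 at 6.20 ± 6.74, Msgn1 at 5.23 ± 5.98, Wnt3a at 4.92 ± 0.413, Cdx1 at 4.06 ± 1.98, T at 2.89 ± 2.27, Tbx6 at 2.40 ± 2.55 and Hes7 at 0.753 ± 0.695. In WT embryos the order was Lfng at 17.6 ± 1.45 FPKM, Fgf8 at 10.02 ± 1.30, Cdx2 at 8.71 ± 6.43, Cdx4 at 8.29 ± 8.29, Msgn1 at 5.72 ± 4.86, Cdx1 at 5.24 ± 1.35, Wnt3a at 4.80 ± 0.853, T at 4.21 ± 3.23, Tbx6 at 2.52 ± 1.98 and Hes7 at 1.41 ± 1.19. Of neighbours in this order, only Lfng and Fgf8 had ranges over the embryos of a genotype that did not overlap. In KO embryos Lfng was at 15.8 FPKM or more and Fgf8 at 14.7 or less. In WT embryos they were at 15.3 or more and 11.3 or less. The ranges of all other neighbours overlapped, which does not compare the genes within each embryo. For the 6 genes that were low or absent in some embryos the SD was 73.7% to 114% of the mean CPM of the group.

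No member was called between KO and WT by edgeR at an adjusted p of 0.05 or less, where 3 of 14804 tested genes (0.0203%) were. None had an unadjusted p of 0.05 or less, against 17.9% of tested genes, and none was called by DESeq2, which called 2.33% of the genes it tested, or by limma voom. No member had KO embryos all above WT embryos (1.09% of tested genes) or all below them (1.74%). The log2 fold change of KO over WT was above 0 for 3 members and below 0 for 7, with a median of -0.21, beside 0.01 over all tested genes. This tally rested on single embryos. Without WT embryo 1 there were 7 above and 3 below 0, with a median of 0.098, and without KO embryo 2 or KO embryo 6 there were 5 and 5, with medians of -0.00062 and -0.0054. Without KO embryo 3 the median was -0.025, and without KO embryo 5 it was -0.54. The smallest adjusted p was 0.572, for Hes7.

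**Figure D4:**
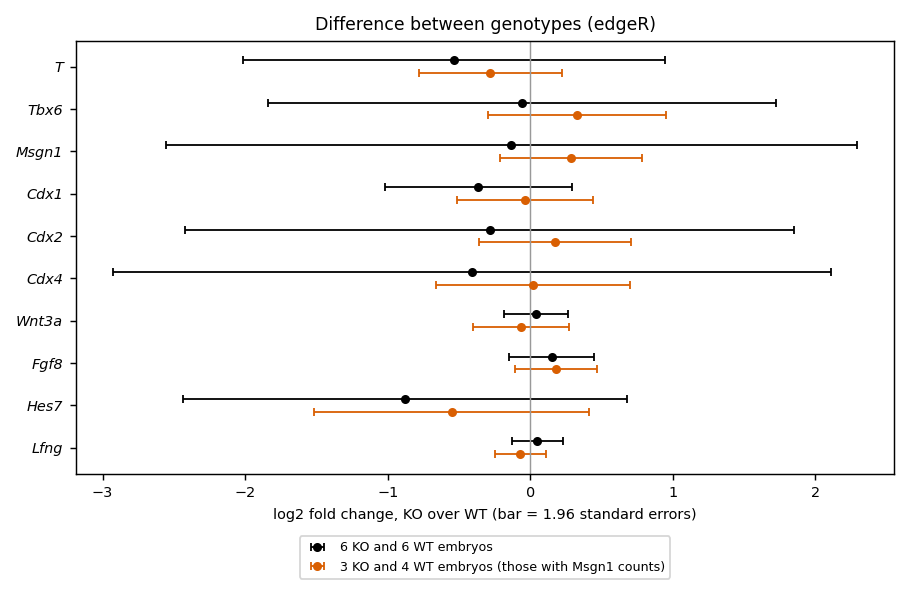
Log2 fold change of KO over WT for each of the 10 genes (edgeR), with bars for the 95% interval. Black points use 6 KO and 6 WT embryos, and orange points use the 3 KO and 4 WT embryos with Msgn1 counts. Every bar crosses 0, and bars for Wnt3a, Fgf8, Lfng and Cdx1 are short in both fits. Those of the other 6 genes are shorter in the orange fit, which leaves out the embryos in which these genes were low.

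How much the test could have seen differed between the genes. For Wnt3a the log2 fold change was 0.04 (SE 0.116), with a 95% interval of -0.19 to 0.27. For Fgf8 it was 0.15 (SE 0.151), with an interval of -0.15 to 0.45, and for Lfng 0.05 (SE 0.0911), with an interval of -0.13 to 0.23. For Cdx1 it was -0.37 (SE 0.334), with an interval of -1.02 to 0.29. These intervals leave out a 2-fold change in either direction, except on the lower side for Cdx1.

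Among the other 6 genes the intervals were wide. The log2 fold change was -0.54 for T (SE 0.756, interval -2.02 to 0.94) and -0.06 for Tbx6 (SE 0.909, interval -1.84 to 1.72). It was -0.13 for Msgn1 (SE 1.24, interval -2.56 to 2.29), and for Cdx2 and Cdx4 it was -0.29 (SE 1.09, interval -2.42 to 1.85) and -0.41 (SE 1.28, interval -2.93 to 2.11). For Hes7 it was -0.88 (SE 0.794, interval -2.44 to 0.67). All 6 intervals included a 2-fold fall, and all but those of T and Hes7 a 2-fold rise. The interval of T ended close to a 2-fold rise and is somewhat too narrow, so such a rise is not left out.

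With only the 3 KO and 4 WT embryos that had Msgn1 counts, a choice made with the values in view, the fit again called no member, while it called 0.02% of 15003 genes. In it, T was at a log2 fold change of -0.28 (SE 0.257), Tbx6 at 0.33 (SE 0.318), Msgn1 at 0.29 (SE 0.256), Cdx2 at 0.17 (SE 0.273), Cdx4 at 0.02 (SE 0.348) and Hes7 at -0.55 (SE 0.492). Their standard errors were smaller than over all 12 embryos, which follows from leaving out the embryos in which these genes were low. For these genes this fit is therefore no separate test. Cdx1 was at -0.04 (SE 0.244), Wnt3a at -0.07 (SE 0.170), Fgf8 at 0.18 (SE 0.147) and Lfng at -0.07 (SE 0.0914). Tbx6, Msgn1, Cdx2, Cdx4, Wnt3a and Lfng changed sign against the fit of all embryos, and no direction is drawn for any of the 10 genes.

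The signalling pathways around these genes were described with lists. Of 131 tested genes in all lists, members left out, edgeR called 0, 12 had an unadjusted p of 0.05 or less, and DESeq2 called 1. Of 14 tested Notch pathway genes of the clock, 6 had a log2 fold change above 0 and 8 below, with a median of -0.02. Rfng, a relative of Lfng, averaged 15.2 ± 1.39 CPM in KO embryos and 18.1 ± 1.53 CPM in WT embryos (log2 fold change -0.25, adjusted p = 0.192). The receptor Notch1 averaged 61.0 ± 19.7 CPM in KO embryos and 50.2 ± 6.06 CPM in WT embryos, and the target Hey1 averaged 40.9 ± 7.79 CPM in KO embryos, against 36.3 ± 1.85 CPM in WT embryos. Hey2, chosen after its values were seen, was the 1 gene of this list whose 5 lowest embryos were those without Msgn1 counts. The summed level of the Notch list stayed between 457.7 and 616.6 CPM in KO embryos and between 509.6 and 554.1 CPM in WT embryos.

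Wnt ligands, targets and feedback genes showed a median of -0.01 over 14 tested, 7 above and 7 below 0. Nkd1, a feedback inhibitor of Wnt signalling, averaged 71.0 ± 2.69 CPM in KO embryos and 77.8 ± 4.99 CPM in WT embryos (log2 fold change -0.13, adjusted p = 0.222), and Tnfrsf19, a Wnt target, 112 ± 11.7 CPM in KO embryos and 104 ± 6.71 CPM in WT. Lef1, a transcription factor of the pathway, had 31.4, 30.0 and 38.3 CPM in KO embryos 2, 3 and 6 but 51.6 to 54.5 CPM in the remaining KO embryos, with 41.7 to 61.3 CPM in WT. Wnt5a and Tcf7, chosen after their values were seen, were the 2 genes of this list whose 5 lowest embryos were those without Msgn1 counts. Wnt5a, a ligand that guides axis lengthening, had 73.9, 65.6 and 61.0 CPM in KO embryos 2, 3 and 6, with 60.0 and 67.7 CPM in WT embryos 5 and 6, and 91.0 to 102 CPM in all others.

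Of 13 Fgf ligands, receptors and feedback genes, 7 lay above and 6 below 0, with a median of 0.06. Spry1, a feedback inhibitor of Fgf signalling, averaged 32.8 ± 4.44 CPM in KO embryos and 27.7 ± 1.95 CPM in WT embryos (log2 fold change 0.24, adjusted p = 0.200). The receptor Fgfr1 averaged 193 ± 8.35 CPM in KO embryos and 183 ± 7.16 CPM in WT. Il17rd, a feedback inhibitor, averaged 93.8 ± 21.7 CPM in KO embryos and 83.6 ± 6.83 CPM in WT embryos, and across the 12 embryos it was the gene closest in profile to Fgf8, with a mean absolute difference of 0.10. In 5 of the 13, Fgf17, Fgf18, Dusp4, Spry4 and Etv4, the 5 lowest embryos were those without Msgn1 counts, a set named after its values were seen. Fgf17, a ligand of the tail bud and the midbrain-hindbrain boundary, had 8.45, 5.13 and 4.79 CPM in KO embryos 2, 3 and 6 but 12.7 to 14.7 CPM in the remaining KO embryos. It had 7.39 and 5.98 CPM in WT embryos 5 and 6 and 10.3 to 15.9 CPM in WT embryos 1 to 4.

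Caudal progenitor genes had a median of -0.06 over 10 tested, 4 above and 6 below 0. The 3 with the smallest p were Tbx3, at 27.7 ± 4.73 CPM in KO embryos and 32.8 ± 2.61 CPM in WT embryos (log2 fold change -0.25, adjusted p = 0.246), the ligand Fgf15, at 19.2 ± 3.59 CPM in KO embryos against 16.4 ± 1.39 CPM in WT, and Gdf11, a ligand that times the move from trunk to tail, at 44.7 ± 6.41 CPM in KO embryos against 49.99 ± 5.48 CPM in WT. Nkx1-2, a homeodomain factor of neuromesodermal progenitors, had 0.9996, 1.68 and 3.52 CPM in KO embryos 2, 3 and 6 but 9.77 to 14.8 CPM in the remaining KO embryos. It had 2.79 and 3.95 CPM in WT embryos 5 and 6 and 10.2 to 19.9 CPM in WT embryos 1 to 4. Nkx1-2 and Evx1 were the 2 of the 10 tested whose 5 lowest embryos were those without Msgn1 counts.

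Genes of the anterior presomitic mesoderm, where somites form, were less divided in their summed level. Of 14 tested, 3 lay above and 11 below 0, with a median of -0.30, which was -0.083 without the 5 embryos that lacked Msgn1 counts. Their summed level was 310.3 and 352.7 CPM in KO embryos 2 and 3, 437.6 to 460.8 CPM in the remaining KO embryos and 439.1 to 491.1 CPM in WT. Uncx and Tcf15, homeodomain and basic helix-loop-helix factors of the forming somite, were lowest in KO embryos 2 and 3, Uncx at 4.54 and 5.64 CPM and Tcf15 at 7.81 and 11.8 CPM, against 14.0 CPM or more for Uncx and 16.9 CPM or more for Tcf15 in every WT embryo. Epha4, a receptor at somite boundaries, averaged 54.0 ± 6.41 CPM in KO embryos and 46.7 ± 3.90 CPM in WT embryos (log2 fold change 0.21, adjusted p = 0.220). Mesp2, chosen after its values were seen, a factor that sets the somite boundary, was under 1.1 CPM in all embryos, with its 5 lowest values in the embryos without Msgn1 counts.

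Node and notochord genes had a median of 0.14 over 7 tested, 6 above and 1 below 0. The gene below 0 was Noto, a homeodomain factor of the notochord at the tail end. Noto had 0 counts in KO embryos 2, 3, 5 and 6 and in WT embryo 5, 0.825 and 1.07 CPM in KO embryos 1 and 4, 0.120 CPM in WT embryo 6, while WT embryos 1 to 4 had 1.15 to 2.09 CPM. KO embryo 5 thus lacked Noto but had Msgn1 counts. Sox9 averaged 72.4 ± 9.63 CPM in KO embryos and 65.0 ± 6.32 CPM in WT embryos, and the secreted inhibitor Nog averaged 9.85 ± 1.88 CPM in KO embryos and 8.58 ± 0.319 CPM in WT. The summed notochord level was 113.6 to 137.7 CPM in KO embryos and 107.1 to 124.8 CPM in WT embryos. Sox9 was the largest part of this sum, which therefore says little about genes at low levels such as Noto.

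Hox genes of paralog groups 9 to 13, which pattern the trunk and tail, were low in a graded way. All 12 tested lay below 0, with a median of -0.62, and none was called. Leaving out single embryos, the median ran from -0.97 to -0.35, and with voom it was -2.26. Without the 5 embryos that lacked Msgn1 counts the median of the 13 then tested was 0.03, with 8 above and 5 below 0. Those embryos also had the lowest summed Hox levels, so this shift is no test. Their summed level over 16 genes was 0.409, 5.43 and 104.5 CPM in KO embryos 2, 3 and 6 but 255 to 271 CPM in the remaining KO embryos. It was 134.0 and 202 CPM in WT embryos 5 and 6 and 219.6 to 262 CPM in WT embryos 1 to 4. Of the 16 genes 13, 12, 9 and 7 had 0 counts in KO embryos 2, 3 and 6 and WT embryo 5, and 0 to 3 in the rest. For 6 of the 12 tested, Hoxa9, Hoxa10, Hoxc10, Hoxc11, Hoxd10 and Hoxd11, the 5 lowest embryos were those without Msgn1 counts. This set was named after its values were seen. Hoxd9 had 0, 0.102 and 5.94 CPM in KO embryos 2, 3 and 6, against 14.1 CPM or more in every WT embryo. Hoxa13, the list gene of the tail tip with the next smallest p after Hoxc9, had at most 0.0550 CPM in KO embryos 2, 3 and 6, 0 counts in WT embryo 5, and 1.67 CPM or more in all others. WT embryo 6, which had 0 Msgn1 counts, had 2.75 CPM of Hoxa13.

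Regions at the front of the body, where Fgf8 is also transcribed, summed higher in KO embryos 2 and 3 than in any WT embryo. For isthmus genes KO embryo 2 was only slightly above the highest WT embryo. The summed level of 8 isthmus genes was 129.5 and 176 CPM in KO embryos 2 and 3. It was 90.7 to 118 CPM in the remaining KO embryos and 102 to 126.7 CPM in WT. Over the list the median log2 fold change was 0.07, with 4 above and 4 below 0, and it was -0.086 without KO embryos 2 and 3. Among its genes Wnt1 averaged 16.1 ± 3.71 CPM in KO embryos and 12.97 ± 1.32 CPM in WT (adjusted p = 0.267), Pax5 19.5 ± 6.01 CPM in KO embryos and 14.6 ± 1.58 CPM in WT embryos, and Gbx2 10.6 ± 1.05 CPM in KO embryos and 9.56 ± 2.004 CPM in WT. The summed level of 12 forebrain genes was 226 and 248 CPM in KO embryos 2 and 3, 135 to 166 CPM in the remaining KO embryos and 123 to 170 CPM in WT. Of these 12, 10 lay above and 2 below 0, with a median of 0.24, which was -0.027 without KO embryos 2 and 3. Both lists summed highest in these KO embryos, so lower medians without them were to be looked for and test nothing. Six3 averaged 14.6 ± 4.43 CPM in KO embryos and 10.1 ± 1.45 CPM in WT embryos, and Otx2 39.3 ± 12.8 CPM in KO embryos and 28.8 ± 3.58 CPM in WT.

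Markers of other tissues also varied among embryos. Over 11 yolk sac genes, of which Apoc2 was at 0 in all libraries, the summed level was 20.4 to 509 CPM in KO embryos and 40.1 to 328 CPM in WT embryos, highest in KO embryos 6 and 5 and WT embryo 2, and all 9 tested genes lay above 0, with a median of 1.10, which was 2.53 without WT embryo 2. Without KO embryo 6 the median was 0.27, with 8 above and 1 below 0, without KO embryo 5 it was 0.66, and with voom it was 0.34, with 7 above and 2 below 0. Cubn and Apob, yolk sac genes for uptake and lipid transport, had 33.0 and 52.5 CPM in KO embryo 6, and Lrp2, an uptake receptor, averaged 19.1 ± 4.19 CPM in KO embryos and 14.4 ± 2.09 CPM in WT. Over 7 trophoblast genes, of which Tpbpa, Psg17 and Ctsq were at 0 throughout, the sum was 1.65 to 3.40 CPM in KO embryos and 1.80 to 6.09 CPM in WT, most of it Plac1. The 4 lowest trophoblast sums were 1.91, 1.68 and 1.65 CPM in KO embryos 2, 3 and 6 and 1.80 CPM in WT embryo 5, all without Msgn1 counts, whereas WT embryo 6 had 3.95 CPM. Over 8 primitive erythroid genes the sum was 2592 to 6070 CPM in KO embryos and 2678 to 6716 CPM in WT embryos, and the log2 fold changes of Hba-x, Epor and Klf1 were -0.15, -0.21 and -0.24. Over 9 heart muscle genes it was 42.9 CPM in KO embryo 3, 1023 to 1525 CPM in the remaining KO embryos and 969 to 1407 CPM in WT embryos, and those of Myh7, Tnni1 and Nppa were 0.64, -0.42 and 0.55. KO embryo 3 was thus low in heart muscle genes as well as tail bud genes, whereas KO embryo 2 had the highest sum of heart muscle genes. In the 5 embryos without Msgn1 counts the yolk sac sum was 20.4, 21.6 and 509 CPM in KO embryos 2, 3 and 6, with 60.3 and 107 CPM in WT embryos 5 and 6, so that KO embryos 2 and 3 had the 2 lowest sums of all and KO embryo 6 the highest. Whether these levels have a part in those of the tail bud genes was not tested.

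The genes most like the 10 members in their profile across embryos were found by the mean absolute difference of centred log2 CPM over the 12 embryos, among 13411 protein-coding genes, whose median difference from the mean profile of the members was 1.31. The nearest 8 were Nkx1-2 (0.26), Ifitm1 (0.28), Peli3 (0.44), Evx2 (0.45), Stra6l (0.46), Naaa (0.49), Hoxd1 (0.52) and Cer1 (0.56). Ifitm1, an interferon-induced membrane protein, had 2.999, 4.72 and 10.3 CPM in KO embryos 2, 3 and 6 but 31.1 to 37.0 CPM in the remaining KO embryos. It had 5.36 and 16.6 CPM in WT embryos 5 and 6 and 23.3 to 44.7 CPM in WT embryos 1 to 4. Cer1, a secreted inhibitor of Nodal and BMP that is transcribed in newly formed somites, was at 0 in KO embryos 2, 3 and 6. It had 1.60, 0.953 and 0.498 CPM in KO embryos 1, 4 and 5. WT embryos 5 and 6 had 0.116 and 0.538 CPM, and WT embryos 1 to 4 had 0.919 to 2.74 CPM. KO embryo 5 thus lay below WT embryo 6, and these levels are low in both genotypes.

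For single members the nearest gene was Nkx1-2 for T (0.45), Evx1 for Tbx6 (0.53), Hoxc11 for Msgn1 (0.79), Hoxa10 for Cdx2 (0.58), Hoxd11 for Cdx4 (0.80), Naaa for Hes7 (0.66), Sfrp5 for Cdx1 (0.23), Skiv2l for Wnt3a (0.09), Il17rd for Fgf8 (0.10) and Eya1 for Lfng (0.04). Evx1, a homeodomain factor of the tail bud, had 0.363, 0.356 and 0.605 CPM in KO embryos 2, 3 and 6 but 10.01 to 13.8 CPM in the remaining KO embryos. In WT embryos 5 and 6 it had 0.699 and 2.93 CPM, and in WT embryos 1 to 4 it had 8.96 to 19.5 CPM. Sfrp5, a secreted Wnt inhibitor, was lowest in KO embryos 2 and 3 at 3.41 and 2.44 CPM, as Cdx1 was, against 8.96 to 12.9 CPM in the remaining KO embryos and 6.66 to 15.8 CPM in WT. Skiv2l and Eya1, like Wnt3a and Lfng, varied little, at 56.1 to 62.0 and 37.0 to 49.98 CPM in KO embryos and 52.9 to 64.4 and 31.4 to 40.3 CPM in WT. Among the members themselves Wnt3a and Fgf8 differed by 0.19, T and Hes7 by 0.48, and Cdx4 and Lfng by 3.16, the farthest pair. These likenesses are descriptions over embryos of which 5 were low for many of the same genes.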

How the data were processed

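Total RNA of 12 single E9.5 embryos had been sequenced by a service company (6 KO, 6 WT). The authors deposited 1 table on GRCm38, whose count columns hold raw reads per gene. Its deposited FPKM columns are per gene length and library size. The deposited signal columns hold group means of normalised counts and, with the log2 fold changes and p-values of the authors' own comparison, were not used. How reads were aligned and counted, and with which strand option, is not given in the sources used here. There were 0 unused columns of single samples.

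Counts of 14804 genes (filterByExpr, minimum count 10) were tested with edgeR 4.0.16 in R 4.3.3 (robust quasi-likelihood F test, TMM factors, group as the only term, two-sided, Benjamini-Hochberg over all tested genes, called at an adjusted p of 0.05 or less). DESeq2 1.42.0, limma 3.58.1 voom with quality weights, other scalings and filters, left-out embryos and a replicate block were alternatives. Scripts were tested on simulated data. CPM use TMM-scaled library sizes, and log2 CPM for likeness used a prior count of 2. The lowest chi-square per gene between libraries of the same group was 4.39, so none was a copy of another. Library totals set the floor of 3 counts at 0.136 to 0.179 CPM.

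Named genes are the 10 members, Traf7 and 2310061I04Rik, called genes and up to 3 genes of smallest p in each list, and the 8 genes most like the mean profile and the nearest to each member. Genes outside this rule are marked where they appear, and 1 gene within it is not reported here. The members and the lists were chosen with earlier results of these data known. Promoters are from RefSeq, matched by symbol.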

Additional observations from a re-analysis of the deposited data

Results flagged for a closer look

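In each genotype the highest and lowest embryo of 62 named and listed genes was compared with its nearest neighbour by Dixon's test, which flags about 1 in 20 groups by chance. Of 124 groups 6 had an embryo apart from the other 5, and none of them belonged to the 10 tail bud and segmentation clock genes. The test looks at a single extreme embryo, so it can hardly flag genes that were low in several embryos of a genotype. Notch1 was highest in KO embryo 5, at 98.2 CPM. Hoxc9 was lowest in WT embryo 5, at 5.65 CPM, an embryo with 0 Msgn1 counts. Apob and Cubn, yolk sac genes, were highest in WT embryo 2, at 20.9 and 10.1 CPM. Epor, the erythropoietin receptor, was highest in KO embryo 6, at 9.13 CPM. Eya1, the gene most like Lfng in its profile, was lowest in WT embryo 1, at 31.4 CPM.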

How the results depend on the processing

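No member was called in any of 20 alternatives, 12 of which left out a single embryo. A member's log2 fold change changed sign 34 times over these alternatives. DESeq2 called 325 genes and voom 53, against 3 by edgeR, and leaving out single embryos gave 2 to 5 (5 without KO embryo 5). DESeq2 called 1 list gene. Leaving out single embryos, log2 fold changes ran from -0.68 to 0.28 for Tbx6, -0.65 to 0.24 for Msgn1, -0.85 to 0.083 for Cdx2, -0.82 to 0.22 for Cdx4, -0.023 to 0.11 for Wnt3a and -0.028 to 0.085 for Lfng, all with both signs. They kept their sign for T (-0.86 to -0.19), Hes7 (-1.40 to -0.58), Cdx1 (-0.54 to -0.17) and Fgf8 (0.05 to 0.25). With voom Lfng was at -0.038, Cdx2 at -1.58, Cdx4 at -1.11, T at -0.13, Hes7 at -0.39, Tbx6 at -0.32, Msgn1 at -0.28 and Fgf8 at 0.035. Without KO embryos 2 and 3, Tbx6 was at 0.46, Msgn1 at 0.46, Cdx1 at 0.0082, Cdx2 at 0.30, Cdx4 at 0.18, Wnt3a at -0.021 and Lfng at -0.087. Without KO embryos 2, 3 and 6 and WT embryo 5, Tbx6 was at 0.61, Msgn1 at 0.60, Cdx2 at 0.42, Cdx4 at 0.32, Wnt3a at -0.039 and Lfng at -0.083. Without WT embryo 6 as well, chosen after the data were seen, they were at 0.33, 0.29, 0.17, 0.019, -0.066 and -0.072. These fits hold fewer embryos.

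KO and WT embryos share numbers 1 to 6, but the labels do not say whether equal numbers belong together. The correlation was over 0.1 in 2 of 6 pairs, at 0.285 for number 1 and 0.200 for number 4. Those 2 KO embryos matched best the WT embryo of the same number, and the other KO embryos did not. Such correlations cannot tell whether equal numbers shared a litter. With the replicate block 0 members and 2 genes in all were called, and T was at -0.57, Cdx2 at -1.16 and Cdx4 at -1.30. At this depth, 0 counts allows up to 0.179 CPM, and Hes7 rests on 1 to 83 counts per embryo.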
